A study of Mus musculus with 22 samples.

Results

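The comparison set hippocampal cells of old rTg4510 mice against those of old mice that by name carry the tau responder alone, labelled P301L. Its members were the cell barcodes of 4 rTg4510 animals at 32 to 38 weeks and 3 P301L animals at 41 to 48 weeks with at least 300 transcript counts, read over the genes counted in both groups. They numbered 8837 of the 27198 kept cells and came from 7 of the 22 animals. The rTg4510 animals, aged 38, 37, 35 and 32 weeks in the order of replicates 1 to 4, gave 1296, 1596, 1599 and 1097 cells, 5588 in all. The P301L animals, aged 48, 41 and 41 weeks, gave 1082, 1355 and 812 cells, 3249 in all.

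All animals were of mixed Fvb/B6 strain and were profiled by Drop-seq, a droplet method that tags the 3′ end of each transcript with a barcode for its cell and another for the molecule. In the published design of the line, rTg4510 mice carry a tau responder, human tau complementary DNA with the P301L mutation behind a tetracycline-operator promoter, together with the tTA transactivator, which the Camk2a promoter drives in forebrain excitatory neurons. By this design both groups carry the responder, and only in rTg4510 does the transactivator switch it on; the labels give the P301L and rTta genotypes by name only, and do not tie either line to 1 founder or clone. Old wild-type (WT, 5 animals at 32 to 40 weeks) and old transactivator-alone animals (rTta, 3 animals at 33 weeks) stand beside some results as context.

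Tau, the product of Mapt, binds and steadies microtubules in axons, and mutant tau collects into tangles in the neurons of this line, which are lost with age. Microglia near dying neurons and protein deposits are known to raise lipid-handling and lysosomal genes such as Apoe, Lpl and Cd63 and to lower the purinergic receptors and surface proteins of their resting state, a change called the disease-associated state. Heat shock genes encode chaperones that hold and refold damaged proteins, and heat shock factor switches them on by binding repeats of the letters GAA.

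Several features of the libraries bear on what follows. Total counts were 1972145 to 6039656 per rTg4510 animal and 870857 to 1563671 per P301L animal, and a kept cell had a median of 833 to 2021 counts in rTg4510 animals against 638 to 729.5 in P301L animals. By its pattern of zero counts, the table appeared to be joined from 2 parts, of 16 and 6 animals. There were 270 genes with counts in the part of 16 animals and none in any P301L or rTta animal. The opposite held for 801 genes, which left 12614 of 13685 genes. Genotype, age and part of the table cannot be told apart in this comparison, and fewer cells of a type and less RNA per cell cannot be told apart in sums over all cells. P301L replicate 3 shared 176 kept barcodes with rTta replicate 3, 21.7% of its own kept cells and 30.1% of the counts in them. Of the shared barcodes, 172 fell in the same cluster in both libraries, whereas no other of 231 library pairs shared more than 2. The ribosomal gene Rpl3 was at 173 CPM (counts scaled to a common library size) in the shared barcodes of P301L replicate 3 and 27.4 CPM in its others, against 3.12 and 6.62 CPM in P301L replicates 1 and 2 and 236 to 253 CPM in rTta animals. Counts of genes are therefore given also without that animal and without the shared barcodes. In rTg4510 replicate 3, 34.0% of kept cells fell in cluster 20, led by Igfbp2, Kl, Prlr and Enpp2, which held no cell of the other 3 rTg4510 animals and was left unnamed.

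Cells were clustered and named from marker genes, and counts were summed per animal and class, since the animal and not the cell is the replicate. Microglia were clusters 9, led by P2ry12, Selplg and Cx3cr1, and 15, led by Ccl4, Ccl3 and Il1b. Excitatory neurons were clusters 0, 1 and 4. Cluster 0 was led by Arpp21, Tshz2, Necab1 and Slc17a6, and cluster 1 by Pde1a, Crym and Neurod6. Cluster 4 was led by C1ql3 and Calb1, genes of dentate granule cells. Clusters 2 and 7, led by Kcnq1ot1 and Meg3 and by Shq1, Kif5a and Camk2a, had low counts per cell and too few markers for a name and are given by number. Levels below are CPM normalised for library composition, changes are on the log2 scale as rTg4510 over P301L with their standard error, and a gene was called when edgeR's adjusted p was under 0.05.

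The transgene check separated the groups in excitatory neurons. There Mapt and Prnp, the prion protein gene whose mouse sequence surrounds the responder's tau insert in the vector of the line, were higher in every rTg4510 animal. Mapt had 2232, 1635, 1391 and 1714 CPM in rTg4510 animals, against 599, 551 and 414 CPM in P301L animals. The groups did not overlap and the rTta and WT animals, at 473 to 655 and 481 to 567 CPM, stood with the P301L animals. Mapt changed by 1.72 ± 0.19 (log2, edgeR adjusted p = 1.93e-06, and under 0.05 with any 1 animal left out). Prnp had 3379.5, 3275, 3345 and 3048 CPM in rTg4510 animals, against 997, 1185 and 1405 CPM in P301L animals. Again the groups were apart, with WT at 919.9 to 1979 CPM. Prnp changed by 1.46 ± 0.22 (log2, edgeR adjusted p = 0.000997, and under 0.05 with any 1 animal left out). Whether transgene transcripts are part of these counts was not tested.

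Mapt was also read in the other classes, and differences between classes were not tested. In cluster 7 it rose, with 1694, 1969.7, 1261 and 1378 CPM in rTg4510 animals, against 782, 708 and 687 CPM in P301L animals. Mapt changed by 1.13 ± 0.29 (log2, edgeR adjusted p = 0.0289). For Mapt the edgeR adjusted p was 0.0739 to 0.176 without rTg4510 replicate 1 or 2 or P301L replicate 1, 2 or 3. Prnp rose there too and changed by 1.42 ± 0.30 (log2, edgeR adjusted p = 0.00948). For Prnp the edgeR adjusted p was 0.0782 without P301L replicate 1 and 0.105 without P301L replicate 2. In oligodendrocytes, which make tau of their own, Mapt had 1553, 1211, 1036 and 1270.4 CPM in rTg4510 animals, against 1592, 1381 and 1192 CPM in P301L animals, and the ranges overlapped. Mapt had a log2 change of -0.13 ± 0.21 (edgeR adjusted p = 0.84). Its log2 change was 0.69 in astrocytes, 1.41 in microglia and 0.68 in cluster 2, with edgeR adjusted p = 0.227, 0.0775 and 0.549. Without rTg4510 replicate 1 the p in microglia was 0.0277. In microglia Prnp was called, with 412, 663, 1034 and 603 CPM in rTg4510 animals, against 143, 253 and 149 CPM in P301L animals. Prnp changed by 1.85 ± 0.39 (log2, edgeR adjusted p = 0.00434). For Prnp the edgeR adjusted p was 0.0522 without P301L replicate 1. Summed over all cells, Mapt had 1011, 947, 511 and 1176 CPM in rTg4510 animals, against 572, 507 and 494 CPM in P301L animals, with rTg4510 replicate 3 among the P301L values. Mapt had a log2 change of 0.80 ± 0.25 (edgeR adjusted p = 0.109).

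The other genes of the check sit where the transgenes are known to have inserted. Esyt2, a membrane-tethering protein gene next to the transactivator on chromosome 12, fell in rTg4510 over all cells: it had 26.6, 33.0, 24.1 and 29.5 CPM in rTg4510 animals, against 53.3, 57.0 and 69.2 CPM in P301L animals. All 4 rTg4510 values lay below the P301L and WT (37.1 to 62.3 CPM) values and beside those of rTta animals (22.5 to 32.5 CPM), which by name carry the transactivator. Esyt2 changed by -1.07 ± 0.21 (log2, edgeR adjusted p = 0.0199). For Esyt2 the edgeR adjusted p was 0.0577 to 0.0952 without rTg4510 replicate 3 or 4 or P301L replicate 2 or 3. Wdr60, a ciliary gene of the same locus, had 57.0, 70.1, 62.9 and 68.7 CPM in rTg4510 animals, against 141, 84.6 and 59.5 CPM in P301L animals, with P301L replicate 3 inside the rTg4510 range. Wdr60 had a log2 change of -0.56 ± 0.28 (edgeR adjusted p = 0.278). Ptprn2 and Ncapg2 of that locus were not called either (edgeR adjusted p = 0.457 and 0.338). Fgf14, a channel-binding growth factor gene broken by the responder, had 9.06, 14.3, 7.06 and 7.84 CPM in rTg4510 animals, against 8.14, 7.05 and 16.6 CPM in P301L animals, overlapping ranges (log2 change -0.05 ± 0.36, edgeR adjusted p = 0.953), beside 18.5 to 24.0 CPM in rTta animals and 11.9 to 23.6 CPM in WT animals, which lack the responder.

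**Figure D1:**
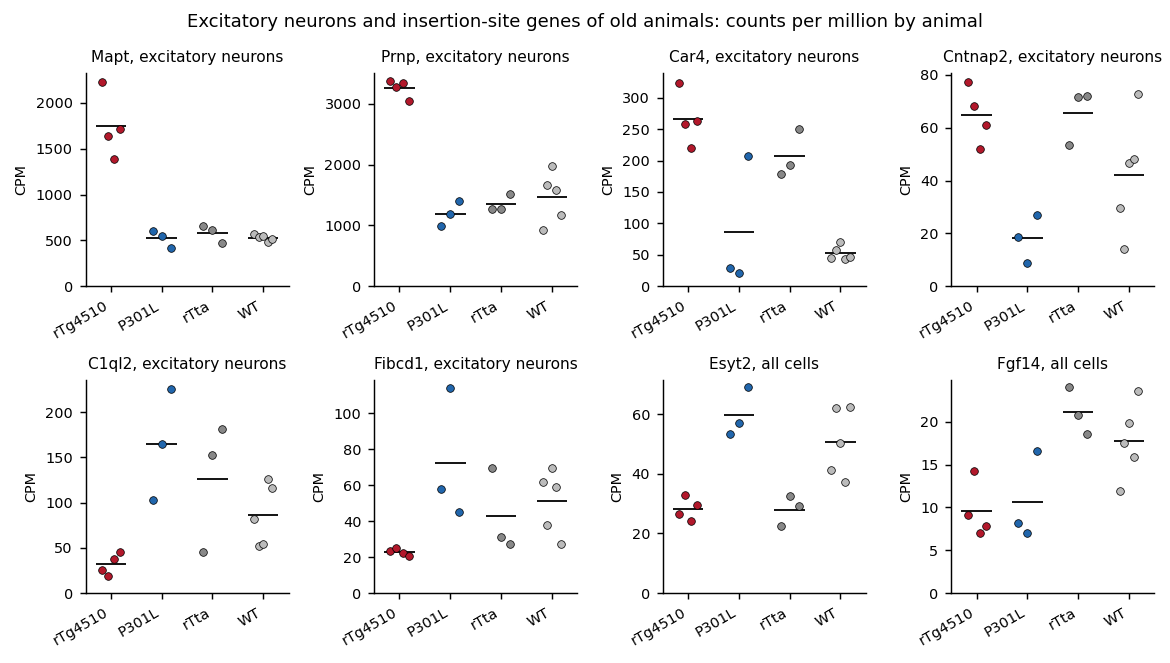
Levels of named genes in excitatory neurons, and of Esyt2 and Fgf14 over all cells, in CPM on linear axes from 0, 1 point per animal with a bar at the group mean, for rTg4510, P301L, rTta and WT animals. The 4 rTg4510 animals have Mapt at 1391 to 2232 CPM, above the P301L animals at 414 to 599 CPM.

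Microglia had the most called genes of any class. Of 4336 genes tested, 128 were higher and 154 lower in rTg4510 microglia, 6.5% in all. Of the disease-associated state, 9 genes rose, among them Lpl, Axl, Apoe and Lgals3, and of the resting state 8 genes fell, among them Slc2a5, P2ry13, Tmem119 and P2ry12. Of the called genes, 185 were also called without P301L replicate 3, 261 without the shared barcodes and 234 with only the 7 animals in the fit. Leaving out 1 animal at a time, edgeR called 282, 178, 167 and 290 without rTg4510 replicates 1, 2, 3 and 4. Counts without P301L replicates 1, 2 and 3 were 37, 79 and 212.

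Of 25 listed genes of the disease-associated state, 19 were tested and 9 were called higher (median log2 change 1.04, against 0.04 over all genes tested), where 2.95% of all genes were called higher. Members that passed the low-count filter through rTg4510 alone had to differ, as Lgals3 did, so this count supports nothing further. Every rTg4510 animal lay above every P301L animal for 13 of the 19, against 10.3% of all genes. The same limit holds for that number, and the gene lists were chosen with earlier results of these data known. Without P301L replicate 3, 9 were called higher, and without the shared barcodes 10. Cst7, Clec7a, Itgax, Spp1, Lyz2 and Gpnmb were not tested here.

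Lpl, the lipase that frees fatty acids from lipoproteins, had 487, 485, 551 and 469 CPM in rTg4510 animals, against 0, 6.67 and 0 CPM in P301L animals. The P301L value rests on 1 counted transcript. Counts pooled over each group and divided by the pooled library sizes gave a ratio of 158, with a 95% exact counting interval of 28.3 to 6259. That interval covers counting error only, and the ratios below with such an interval were made the same way. WT microglia lay between, at 26.8 to 68.6 CPM (edgeR adjusted p = 7.39e-09 for rTg4510 over P301L, and under 0.05 with any 1 animal left out). Axl, a receptor kinase for the engulfment of dead cells, had 306, 232, 199.8 and 161 CPM in rTg4510 animals, against 0, 26.7 and 12.4 CPM in P301L animals. Every rTg4510 animal was far above every P301L animal and above WT animals at 0 to 68.6 CPM. Axl changed by 3.82 ± 0.58 (log2, edgeR adjusted p = 3.96e-05, and under 0.05 with any 1 animal left out). Apoe, the main lipid carrier of the brain, had 74618, 36885, 45934 and 33095 CPM in rTg4510 animals, against 3729.6, 7417 and 8366 CPM in P301L animals. The lowest rTg4510 animal was above the highest P301L animal and above WT animals at 3666 to 11605 CPM. Apoe changed by 2.87 ± 0.51 (log2, edgeR adjusted p = 0.00105, and under 0.05 with any 1 animal left out). Lgals3, a galectin of phagocytes, had 109.5, 118, 117 and 80.4 CPM in rTg4510 animals, against 0, 13.3 and 0 CPM in P301L animals and was at 0 in all WT and rTta animals. The P301L value rests on 2 counts, with a ratio of 17.8 with a 95% exact counting interval of 4.83 to 149 (edgeR adjusted p = 0.00903, but 0.0614 without P301L replicate 1). Lgals3 passed the low-count filter through its rTg4510 counts, and without rTg4510 replicate 1, 2 or 3 it did not pass and was not tested.

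Among the lysosomal members, Cd63, a tetraspanin of late endosomes, had 2103, 1380.5, 1351 and 924 CPM in rTg4510 animals, against 351, 440.2 and 695 CPM in P301L animals. The groups did not overlap, although P301L replicate 3 came close. Cd63 changed by 1.55 ± 0.35 (log2, edgeR adjusted p = 0.00546). For Cd63 the edgeR adjusted p was 0.0857 without P301L replicate 1 and 0.0503 without P301L replicate 2. Ctsl, the protease cathepsin L, had 1986, 1375, 1178 and 998 CPM in rTg4510 animals, against 505, 614 and 919 CPM in P301L animals. These were also without overlap, but rTta animals, at 1121 to 1538 CPM, lay wholly within the rTg4510 range. Ctsl changed by 1.04 ± 0.32 (log2, edgeR adjusted p = 0.0382). For Ctsl the edgeR adjusted p was 0.0568 to 0.287 without rTg4510 replicate 1 or 2 or P301L replicate 1 or 2. Of 36 tested lysosome genes, 4 rose and 0 fell (median log2 change 0.27, against 0.04 over all genes tested), beside the 2.95% of all genes called higher. Besides Cd63 and Ctsl these were Atp6v1a, a subunit of the proton pump, and Npc2, which moves cholesterol out of lysosomes. Atp6v1a changed by 1.38 ± 0.37 (log2, edgeR adjusted p = 0.0183). For Atp6v1a the edgeR adjusted p was 0.219 without P301L replicate 1 and 0.0547 without P301L replicate 2. Npc2 changed by 0.94 ± 0.30 (log2, edgeR adjusted p = 0.045). For Npc2 the edgeR adjusted p was 0.0689 to 0.286 without rTg4510 replicate 1 or 2 or P301L replicate 1, 2 or 3. Ank, Cd9 and Cd52 completed the called members of the disease-associated list. Ank, a pyrophosphate transporter, changed by 1.65 ± 0.34 (log2, edgeR adjusted p = 0.00368). Cd9, a tetraspanin, changed by 1.23 ± 0.31 (log2, edgeR adjusted p = 0.0123). Cd52, a small surface glycoprotein, changed by 1.23 ± 0.34 (log2, edgeR adjusted p = 0.0244). For Ank, Cd9 and Cd52, calls lost were 1 without rTg4510 replicate 2 (edgeR adjusted p = 0.0588). On the P301L side they were 2 without P301L replicate 1 (edgeR adjusted p = 0.159 to 0.16), 3 without P301L replicate 2 (0.0619 to 0.0923) and 1 without P301L replicate 3 (0.0583).

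Trem2, the receptor upstream of the state in other models, had 3448, 2901, 2005 and 2458 CPM in rTg4510 animals, against 2227, 2608 and 2855 CPM in P301L animals. The ranges overlapped and the gene was not called. Trem2 had a log2 change of 0.08 ± 0.33 (edgeR adjusted p = 0.929). Ctsd, Tyrobp and Csf1 were not called either. Ctsd, a cathepsin, had a log2 change of 0.27 ± 0.34 (edgeR adjusted p = 0.697). Tyrobp, the adaptor of Trem2, had a log2 change of 0.53 ± 0.32 (edgeR adjusted p = 0.353). Csf1, a growth factor of microglia, had a log2 change of -0.27 ± 0.62 (edgeR adjusted p = 0.859).

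The resting-state list moved the other way. Of 18 tested genes, 8 were called lower and 0 higher (median log2 change -0.87, against 0.04 over all genes tested), where 3.55% of all genes were called lower. Without P301L replicate 3, 6 were called lower, and without the shared barcodes 8. Slc2a5, a fructose transporter that microglia hold in the brain, had 26.4, 45.0, 41.3 and 73.7 CPM in rTg4510 animals, against 340.0, 454 and 397 CPM in P301L animals. No rTg4510 value came near the P301L range, and WT animals, at 94.4 to 355 CPM, reached into the P301L range. Slc2a5 changed by -3.13 ± 0.37 (log2, edgeR adjusted p = 2.72e-07, and under 0.05 with any 1 animal left out). P2ry12, the receptor that steers microglial processes towards ATP, had 1605, 1607, 524 and 1782 CPM in rTg4510 animals, against 3905, 3529 and 3947 CPM in P301L animals. All rTg4510 animals were below all P301L animals and replicate 3 was lowest by far. P2ry12 changed by -1.45 ± 0.35 (log2, edgeR adjusted p = 0.00903). For P2ry12 the edgeR adjusted p was 0.0593 without P301L replicate 1. P2ry13, its relative, and Tmem119, a microglial membrane protein, fell as well. P2ry13 changed by -1.71 ± 0.33 (log2, edgeR adjusted p = 0.00204, and under 0.05 with any 1 animal left out). Tmem119 changed by -1.63 ± 0.37 (log2, edgeR adjusted p = 0.00586). For Tmem119 the edgeR adjusted p was 0.0516 without P301L replicate 2. Selplg, Gpr34, Sall1 and Olfml3 were the other called members, with log2 changes of -1.39, -1.18, -1.32 and -1.25. Calls lost among Selplg, Gpr34, Sall1 and Olfml3 were 2 without rTg4510 replicate 3 (edgeR adjusted p = 0.0723 to 0.125) and 1 without rTg4510 replicate 4 (0.114). Those for P301L were 4 without P301L replicate 1 (edgeR adjusted p = 0.0544 to 0.136), 4 without P301L replicate 2 (0.0592 to 0.11) and 2 without P301L replicate 3 (0.0724 to 0.151). Csf1r and Cx3cr1, receptors that mark the cell type, were not called (edgeR adjusted p = 0.178 and 0.179).

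**Figure D2:**
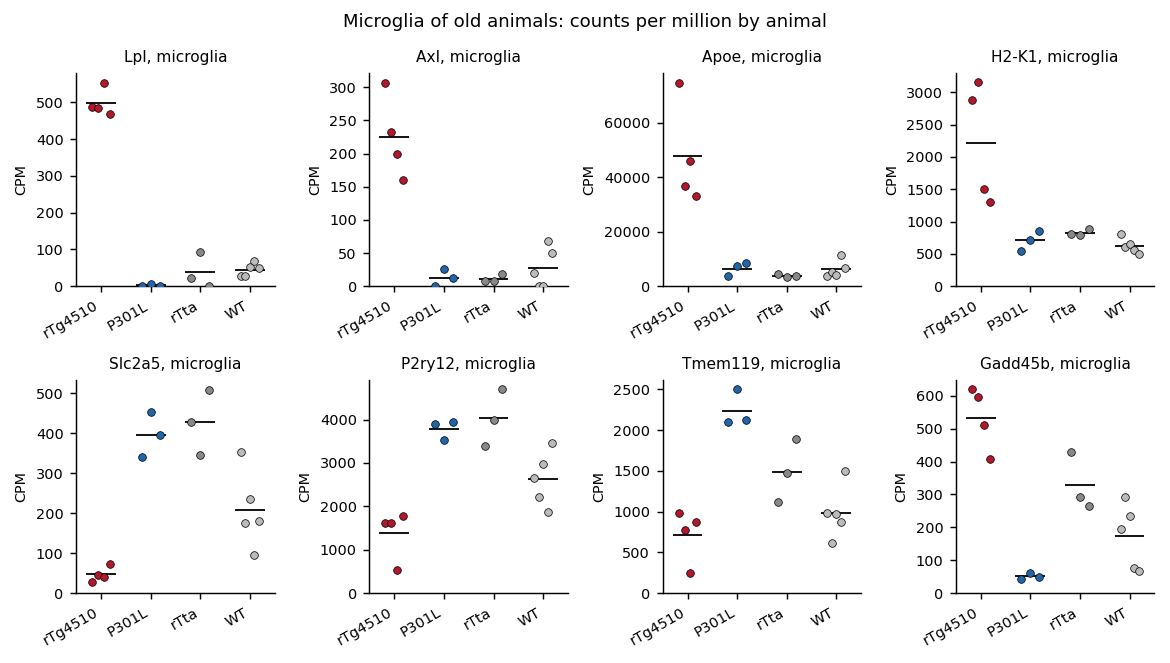
Levels of named genes in microglia, in CPM on linear axes from 0, 1 point per animal with a bar at the group mean, for rTg4510, P301L, rTta and WT animals. Lpl, Axl and Apoe lie higher in the rTg4510 animals, and Slc2a5 lies lower, at 26.4 to 73.7 CPM against 340.0 to 454 CPM in P301L animals.

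Few genes of antigen presentation and complement were called. H2-K1 and H2-D1, class I antigen-presenting chains that are near-identical copies and may share reads, were the 2 called of 9 tested in their list. Both were called higher, beside 2.95% of all genes. H2-D1 had 6291, 6386, 2529 and 1969 CPM in rTg4510 animals, against 899, 1527 and 1837 CPM in P301L animals, with replicates 1 and 2 of rTg4510 far above the others and no overlap. H2-D1 changed by 1.598 ± 0.42 (log2, edgeR adjusted p = 0.0162). For H2-D1 the edgeR adjusted p was 0.05 to 0.165 without rTg4510 replicate 2 or P301L replicate 1 or 2. H2-K1 had 2881, 3159, 1495 and 1306 CPM in rTg4510 animals, against 548, 720.4 and 856 CPM in P301L animals. H2-K1 changed by 1.65 ± 0.35 (log2, edgeR adjusted p = 0.00434). For H2-K1 the edgeR adjusted p was 0.0614 without P301L replicate 1. B2m, the chain both pair with, missed the threshold. B2m had a log2 change of 1.12 ± 0.36 (edgeR adjusted p = 0.0542). It passed without rTg4510 replicate 3 or 4 (edgeR adjusted p = 0.027 and 0.0255). None of the 3 tested class II genes was called by edgeR; Cd74 had 476, 1441, 386 and 301.4 CPM in rTg4510 animals, against 165, 153 and 819 CPM in P301L animals, with rTg4510 replicate 2 and P301L replicate 3 high. Cd74 had a log2 change of 0.87 ± 0.98 (edgeR adjusted p = 0.662). No interferon gene of 4 tested was called either (Ifitm3 edgeR adjusted p = 0.407). In the complement list, Itgam, a subunit of the receptor for fragments of complement C3, was the 1 of 9 called. It was called lower, beside 3.55% of all genes, with 699, 802, 462 and 884 CPM in rTg4510 animals, against 2194, 1628 and 1241 CPM in P301L animals. Itgam changed by -1.24 ± 0.34 (log2, edgeR adjusted p = 0.023). For Itgam the edgeR adjusted p was 0.05 to 0.21 without rTg4510 replicate 2 or 3 or P301L replicate 1 or 2. C1qa, C1qb and C1qc, which start the classical cascade, had log2 changes of -0.18, -0.02 and -0.02.

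Among stress and growth genes, Gadd45b, a stress-induced growth-arrest gene, had 619, 596, 509.9 and 409 CPM in rTg4510 animals, against 43.9, 60.0 and 49.6 CPM in P301L animals. All rTg4510 animals lay far above all P301L animals, while rTta animals, at 264 to 429.5 CPM, lay near rTg4510 and WT animals at 66.0 to 291 CPM between. Gadd45b changed by 3.34 ± 0.47 (log2, edgeR adjusted p = 1.42e-05, and under 0.05 with any 1 animal left out). Its relative Gadd45g fell. Gadd45g changed by -1.38 ± 0.38 (log2, edgeR adjusted p = 0.0219). For Gadd45g the edgeR adjusted p was 0.0525 to 0.141 without rTg4510 replicate 1 or 2 or P301L replicate 1, 2 or 3. Immediate early genes are induced within minutes of a stimulus. Of 15 tested, Ier2 rose (log2 change 1.27 ± 0.32, edgeR adjusted p = 0.0115), and Egr2 (log2 change -1.56 ± 0.38, edgeR adjusted p = 0.0107) and Jund (log2 change -1.30 ± 0.37, edgeR adjusted p = 0.026) fell. Among all genes tested, 2.95% were called higher and 3.55% lower. Of the ribosomal protein genes, Rpl7 rose (log2 change 2.44 ± 0.56, edgeR adjusted p = 0.00782), and Rpl13 (log2 change -1.52 ± 0.35, edgeR adjusted p = 0.00605) and Rps18 (log2 change -2.58 ± 0.66, edgeR adjusted p = 0.0124) fell. Ribosomal protein genes have near-identical pseudogenes, so these counts are uncertain. Rps18 was at 137 CPM in P301L replicate 3, against 21.9 and 33.4 CPM in P301L replicates 1 and 2, beside 320.3 to 353 CPM in rTta animals. No gene of 24 tested for oxidative phosphorylation was called by edgeR (21 positive, median log2 change 0.47, against 0.04 over all genes tested). Of the calls of Ier2, Egr2, Jund, Rpl7, Rpl13 and Rps18, those lost were 2 without rTg4510 replicate 2 (edgeR adjusted p = 0.0672 to 0.0929) and 1 without rTg4510 replicate 3 (0.0801). Also lost were 4 without P301L replicate 1 (edgeR adjusted p = 0.0593 to 0.352), 2 without P301L replicate 2 (0.0547 to 0.101), 2 without P301L replicate 3 (0.0546 to 0.276) and 1 without the shared barcodes (0.252).

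Among the genes of largest change that belong to no list, Fxyd5, an ion-pump regulator that loosens cell contacts, had 125, 142, 138 and 80.4 CPM in rTg4510 animals, against 0, 6.67 and 12.4 CPM in P301L animals. Fam20c, a kinase of secreted proteins, had 113, 128, 110.3 and 87.1 CPM in rTg4510 animals, against 10.97, 6.67 and 0 CPM in P301L animals. Neither gene overlapped between the groups, but both were picked for their change, and 10.3% of all genes lay wholly higher in rTg4510. Each P301L sum was 2 counts, with ratios of 20.8 with a 95% exact counting interval of 5.66 to 173 and of 18.8 with a 95% exact counting interval of 5.11 to 157 (edgeR adjusted p = 0.00105 and 0.00204). Ptgs2, the inducible cyclooxygenase, had 159, 52.0, 96.5 and 100.5 CPM in rTg4510 animals, against 0, 0 and 24.8 CPM in P301L animals, with a ratio of 14.3 with a 95% exact counting interval of 3.86 to 119.6 (edgeR adjusted p = 0.0228, but 0.059 to 0.145 without rTg4510 replicate 1 or P301L replicate 1 or 2). Cacnb4, a calcium channel subunit of neurons, had 52.9, 90.1, 145 and 67.0 CPM in rTg4510 animals, against 0, 6.67 and 0 CPM in P301L animals, with 1 count in P301L animals, a ratio of 27.5 with a 95% exact counting interval of 4.81 to 1095 (edgeR adjusted p = 0.00161) and 33.0 to 146 CPM in WT animals. Genes outside the lists also fell. Clec10a (a lectin of macrophages), Hmox1 (the haem-degrading enzyme), Erf (a transcriptional repressor) and Oaz1 (an inhibitor of polyamine synthesis) had log2 changes of -3.62 to -2.29 (edgeR adjusted p = 0.00204 to 0.0179). For Clec10a, Hmox1, Erf and Oaz1, calls lost were 1 without rTg4510 replicate 2 (edgeR adjusted p = 0.0771). On the P301L side they were 3 without P301L replicate 1 (edgeR adjusted p = 0.0857 to 0.161) and 1 without P301L replicate 2 (0.0555).

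Neuronal transcripts also moved in the microglial sums. Of 7 neuron markers 5 were called higher, where 2.95% of all genes were. Their summed level was 1820.1 to 10633 CPM in rTg4510 animals, against 567 to 1079.9 CPM in P301L animals (rTta 1490.2 to 1792, WT 2427 to 8818 CPM). Gad2, the GABA-making enzyme of interneurons, had 71.7, 72.7, 199.8 and 60.3 CPM in rTg4510 animals, against 0, 6.67 and 12.4 CPM in P301L animals, with replicate 3 of rTg4510 highest and a ratio of 14.01 with a 95% exact counting interval of 3.78 to 117 (edgeR adjusted p = 0.013, but 0.113 without P301L replicate 1 and 0.0952 without P301L replicate 2). The microglial markers summed to 31546 to 70657 CPM in rTg4510 animals, against 55099 to 62493 CPM in P301L animals (rTta 50152 to 65356, WT 24532 to 43457 CPM). The part of neuronal RNA in the Mapt, Prnp, Cacnb4 and Gad2 values was not tested.

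The 2 microglial clusters were present in different proportions, and several changes were called within each. Cluster 15 held 38.4, 55.5, 63.8 and 47.3% of microglia in the rTg4510 animals, against 26.2, 20.9 and 23.5% in the P301L animals, without overlap. Within cluster 9 alone, edgeR called 292 of 2571 genes (11.4%), and within cluster 15 alone 93 of 2408 (3.86%). Slc2a5 fell in both (-3.25 ± 0.49 in cluster 9, adjusted p = 2.76e-05, and -2.86 ± 0.46 in cluster 15, adjusted p = 0.000484), as did Tmem119 (-1.86 ± 0.38, adjusted p = 0.00142, and -1.18 ± 0.33, adjusted p = 0.0388). Axl rose in both (4.90 ± 1.03 and 2.79 ± 0.78, adjusted p = 0.002 and 0.0388). Apoe changed by 2.94 ± 0.48 in cluster 9 and 2.63 ± 0.75 in cluster 15, and only the first passed the threshold (edgeR adjusted p = 0.000345 and 0.0758); the difference between clusters was not tested. These within-cluster values were added after the data had been seen.

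Excitatory neurons changed in genes beside the transgene-related pair. Of 9117 genes tested, 25 were higher and 46 lower in rTg4510, 0.274% and 0.505% (0.779% in all). Besides Mapt and Prnp, the adhesion genes Cntnap2 and Lsamp, the microtubule regulator Stmn2 and the carbonic anhydrase Car4 rose. C1ql2 and Fibcd1, genes of hippocampal excitatory neurons, the release sensor Doc2b and the tau kinase Mark2 fell. The mix of clusters within the class differed as well. Cluster 4 held 33.1 to 62.5% of excitatory neurons in rTg4510 animals, against 66.4 to 67.3% in P301L animals. The part of that mix in the higher and lower calls was not tested. Of the called genes, 53 were also called without P301L replicate 3, 53 without the shared barcodes and 63 with only the 7 animals in the fit. That last fit called 250 genes in all, 103 higher and 147 lower, and DESeq2 with all animals called 139. Leaving out 1 animal at a time, edgeR called 73, 26, 47 and 73 without rTg4510 replicates 1, 2, 3 and 4. The counts were 26, 12 and 81 without P301L replicates 1, 2 and 3.

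Car4, which turns carbon dioxide into bicarbonate at the cell surface, had 324, 257, 220.5 and 263 CPM in rTg4510 animals, against 29.0, 21.0 and 207 CPM in P301L animals. P301L replicate 3 stood near rTg4510 and near rTta animals at 179 to 250.2 CPM, while WT animals were at 42.8 to 69.8 CPM. Car4 changed by 2.184 ± 0.43 (log2, edgeR adjusted p = 0.0128). For Car4 the edgeR adjusted p was 0.139 without P301L replicate 1 and 0.157 without P301L replicate 2. Without P301L replicate 3 the log2 change was 3.39 (edgeR adjusted p = 1.33e-07), and with only the 7 animals in the fit the adjusted p was 0.0998. Cntnap2, an adhesion protein that clusters potassium channels along axons, had 77.2, 68.4, 51.9 and 60.9 CPM in rTg4510 animals, against 18.5, 8.98 and 27.0 CPM in P301L animals. The groups did not overlap, and rTta animals lay at 53.5 to 71.8 CPM with rTg4510. Cntnap2 changed by 1.99 ± 0.42 (log2, edgeR adjusted p = 0.0128). For Cntnap2 the edgeR adjusted p was 0.0754 without P301L replicate 1 and 0.174 without P301L replicate 2. Lsamp, an adhesion protein of limbic neurons, had 208, 252, 236 and 231 CPM in rTg4510 animals, against 52.7, 86.8 and 135 CPM in P301L animals. Lsamp changed by 1.5 ± 0.30 (log2, edgeR adjusted p = 0.011). For Lsamp the edgeR adjusted p was 0.149 without P301L replicate 1 and 0.0983 without P301L replicate 2. Stmn2, which frees tubulin from microtubules in growing axons, had 1362, 1595, 1184 and 1523 CPM in rTg4510 animals, against 704, 446 and 711 CPM in P301L animals, without overlap. Stmn2 changed by 1.20 ± 0.25 (log2, edgeR adjusted p = 0.0128). For Stmn2 the edgeR adjusted p was 0.0514 without rTg4510 replicate 2 and 0.157 without P301L replicate 2. Fam115a, Palmd and Dtnbp1 rose as well. Fam115a changed by 1.53 ± 0.28 (log2, edgeR adjusted p = 0.00628). Palmd changed by 1.55 ± 0.39 (log2, edgeR adjusted p = 0.0437). Dtnbp1, of the lysosome-related organelle complex, changed by 1.41 ± 0.32 (log2, edgeR adjusted p = 0.0236). Calls lost among Fam115a, Palmd and Dtnbp1 were 1 without rTg4510 replicate 1 (edgeR adjusted p = 0.0622), 2 without rTg4510 replicate 2 (0.0667 to 0.141) and 2 without rTg4510 replicate 3 (0.0578 to 0.0677). Those for P301L were 1 without P301L replicate 1 (edgeR adjusted p = 0.0873), 3 without P301L replicate 2 (0.0983 to 0.332), 1 without P301L replicate 3 (0.0702) and 1 without the shared barcodes (0.0672).

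C1ql2, a synaptic organiser secreted by dentate granule cells, had 25.7, 18.5, 38.2 and 44.8 CPM in rTg4510 animals, against 103, 165 and 225 CPM in P301L animals. All rTg4510 animals lay below all P301L animals, and rTta animals, at 45.5 to 181 CPM, lay above rTg4510 and reached into the P301L range. C1ql2 changed by -2.27 ± 0.45 (log2, edgeR adjusted p = 0.0128). For C1ql2 the edgeR adjusted p was 0.0514 without rTg4510 replicate 2 and 0.138 without P301L replicate 2. Fibcd1, a receptor for acetylated sugars, had 23.6, 24.9, 22.3 and 20.7 CPM in rTg4510 animals, against 58.0, 114 and 45.0 CPM in P301L animals, again without overlap. Fibcd1 changed by -1.74 ± 0.40 (log2, edgeR adjusted p = 0.0271). For Fibcd1 the edgeR adjusted p was 0.059 to 0.347 without rTg4510 replicate 2, 3 or 4 or P301L replicate 1 or 2. They were the 2 called of 17 tested genes of dentate granule cells and CA fields (median log2 change -0.77, against 0.01 over all genes tested), beside 0.505% of all genes called lower. The 15 not called went both ways, with log2 changes of -1.80 to 1.70. Lct and Trpc6 were at -1.51 and -1.63, and Wfs1 and Bok at 1.14 and 1.18. The makeup of the class also differed. Cluster 4 held 34.7, 33.2, 33.1 and 62.5% of excitatory neurons in the rTg4510 animals, against 66.4, 67.3 and 66.7% in the P301L animals. Within cluster 4 alone 94 of 6896 genes were called by edgeR (1.36%), Mapt differed by 2.09 ± 0.24 (adjusted p = 1.39e-07) and C1ql2 by -1.65 ± 0.33 (adjusted p = 0.00332).

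Doc2b, a calcium sensor for spontaneous transmitter release, had 4.29, 17.7, 20.1 and 8.05 CPM in rTg4510 animals, against 68.6, 77.8 and 27.0 CPM in P301L animals. All rTg4510 values lay below all P301L values. Doc2b changed by -2.21 ± 0.45 (log2, edgeR adjusted p = 0.0128). For Doc2b the edgeR adjusted p was 0.102 without P301L replicate 1 and 0.167 without P301L replicate 2. It was the only called gene of 22 tested for the synaptic vesicle (median log2 change 0.04, against 0.01 over all genes tested), beside 0.505% of all genes called lower. Of 19 tested tau kinases and phosphatases, only Mark2 was called, beside the same 0.505% of all genes called lower. Mark2, which phosphorylates tau in its microtubule-binding repeats, had 49.3, 55.5, 59.4 and 52.9 CPM in rTg4510 animals, against 113, 108 and 126 CPM in P301L animals. Mark2 changed by -1.06 ± 0.24 (log2, edgeR adjusted p = 0.0193). For Mark2 the edgeR adjusted p was 0.0622 to 0.133 without rTg4510 replicate 2 or P301L replicate 1 or 2 and 0.0544 without the shared barcodes. Npy2r, a presynaptic receptor for neuropeptide Y, had 4.29, 15.3, 13.8 and 16.1 CPM in rTg4510 animals, against 55.4, 53.9 and 9.004 CPM in P301L animals, with P301L replicate 3 among the rTg4510 animals. Npy2r changed by -1.79 ± 0.43 (log2, edgeR adjusted p = 0.0361). For Npy2r the edgeR adjusted p was 0.0677 to 0.223 without rTg4510 replicate 1, 2 or 3 or P301L replicate 1 or 2.

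Several other genes fell in excitatory neurons. Robo3 (an axon guidance receptor), Col6a1 (a collagen), Btg1 (an antiproliferative factor), Prrc2a (an RNA-binding protein) and Krt9 (a keratin) had log2 changes of -3.11 to -2.11 (edgeR adjusted p = 0.00365 to 0.011). Atp5g1, a subunit of the ATP synthase, was the only called gene of 25 tested for oxidative phosphorylation, beside 0.505% of all genes called lower. Atp5g1 changed by -1.65 ± 0.31 (log2, edgeR adjusted p = 0.011). Among the ribosomal protein genes Rpl11 and Rps18 fell, with the limits given for microglia. Rpl11 changed by -2.42 ± 0.58 (log2, edgeR adjusted p = 0.0429). Rps18 changed by -3.69 ± 0.79 (log2, edgeR adjusted p = 0.0154). Of the calls of Robo3, Col6a1, Btg1, Prrc2a, Krt9, Atp5g1, Rpl11 and Rps18, those lost were 2 without rTg4510 replicate 2 (edgeR adjusted p = 0.0715 to 0.147), 1 without rTg4510 replicate 3 (0.0988) and 1 without rTg4510 replicate 4 (0.0865). Also lost were 6 without P301L replicate 1 (edgeR adjusted p = 0.0602 to 0.171), 3 without P301L replicate 2 (0.0915 to 0.133), 2 without P301L replicate 3 (0.0849 to 0.135) and 2 without the shared barcodes (0.0875 to 0.14).

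The other neuronal lists held at most 1 called gene by edgeR. Of 21 tested glutamate receptor and postsynaptic genes none was called, and Gria2, an AMPA receptor subunit, had 2886 to 3561 CPM in rTg4510 animals, against 2502 to 2755 CPM in P301L animals. Gria2 had a log2 change of 0.25 ± 0.19 (edgeR adjusted p = 0.547). None of 15 immediate early genes was called, although 14 were negative (median log2 change -0.77, against 0.01 over all genes tested); Arc, which remodels active synapses, had the largest difference. Arc had a log2 change of -2.23 ± 0.68 (edgeR adjusted p = 0.121). None of 12 heat shock genes (median log2 change 0.15, against 0.01 over all genes tested) and none of 9 integrated stress response genes (median log2 change 0.23, against 0.01 over all genes tested) was called, against 1397 of all 9117 genes at an unadjusted p under 0.05. Stmn2 was the only called gene of 20 tubulin and microtubule-associated genes (median log2 change 0.09, against 0.01 over all genes tested), beside 0.274% of all genes called higher.

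Oligodendrocytes, the myelin-forming cells, had 29 higher and 25 lower genes of 6053 tested, 0.479% and 0.413% (0.892% in all). Snap25, Cck and Stmn2, genes of neurons, and Ntsr2 and Sox9, genes of astrocytes, were among the higher genes, and the heat shock genes Hspa1b and Dnajb1 were among the lower ones. No myelin gene was called. Of the called genes, 16 were also called without P301L replicate 3, 52 without the shared barcodes and 32 with only the 7 animals in the fit. Leaving out 1 animal at a time, edgeR called 90, 52, 15 and 62 without rTg4510 replicates 1, 2, 3 and 4. It called 0 (613 at an unadjusted p under 0.05), 10 and 16 without P301L replicates 1, 2 and 3.

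Snap25, a neuronal protein of vesicle fusion, had 156, 243, 492 and 244 CPM in rTg4510 animals, against 46.0, 35.3 and 72.2 CPM in P301L animals. The groups were apart and WT animals, at 206 to 468 CPM, overlapped rTg4510. Snap25 changed by 2.53 ± 0.45 (log2, edgeR adjusted p = 0.0124). For Snap25 the edgeR adjusted p was 0.0828 without P301L replicate 1 and 0.0501 without P301L replicate 2. More genes of neurons and astrocytes rose. Cck (a neuropeptide), Stmn2 (the microtubule regulator), Ntsr2 (a neurotensin receptor of astrocytes) and Sox9 (a transcription factor of astrocytes) had log2 changes of 2.53 to 2.80 (edgeR adjusted p = 0.00707 to 0.0251). Of 7 neuron markers 4 were called higher, where 0.479% of all genes were, with summed levels of 1119 to 2911 CPM in rTg4510 animals, against 307 to 505 CPM in P301L animals (rTta 508 to 1063, WT 901 to 2160.5 CPM). Of 9 astrocyte markers 3 were called higher, beside the same 0.479% of all genes, with 2254 to 7168 CPM in rTg4510 animals, against 787 to 2232 CPM in P301L animals (rTta 1288 to 2087, WT 1487 to 3735 CPM). Their part in the higher calls was not tested. The remaining named higher genes were Snx10, Ramp1 and Chchd10. Snx10, an endosomal sorting protein, changed by 2.88 ± 0.67 (log2, edgeR adjusted p = 0.023). Ramp1, a receptor partner for neuropeptides, changed by 2.51 ± 0.54 (log2, edgeR adjusted p = 0.0215). Chchd10, a mitochondrial protein, changed by 2.51 ± 0.59 (log2, edgeR adjusted p = 0.0479). For Cck, Stmn2, Ntsr2, Sox9, Snx10, Ramp1 and Chchd10, calls lost were 1 without rTg4510 replicate 2 (edgeR adjusted p = 0.058) and 5 without rTg4510 replicate 3 (0.0635 to 0.0924). On the P301L side they were 7 without P301L replicate 1 (edgeR adjusted p = 0.0828 to 0.232), 5 without P301L replicate 2 (0.0501 to 0.14) and 6 without P301L replicate 3 (0.0631 to 0.143).

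None of 15 myelin genes was called by edgeR, and 13 were negative (median log2 change -0.32, against 0.00 over all genes tested). Mbp, myelin basic protein, had 7518, 8334, 8260.1 and 8121 CPM in rTg4510 animals, against 9943, 11279.5 and 12637 CPM in P301L animals, with all rTg4510 values below all P301L values. Mbp had a log2 change of -0.49 ± 0.21 (edgeR adjusted p = 0.271). Stmn1, which destabilises microtubules, fell, with 161, 104, 44.7 and 58.6 CPM in rTg4510 animals, against 322, 261 and 403 CPM in P301L animals. Stmn1 changed by -1.82 ± 0.38 (log2, edgeR adjusted p = 0.0187). For Stmn1 the edgeR adjusted p was 0.0622 to 0.118 without rTg4510 replicate 3 or P301L replicate 1 or 3. Other genes fell in oligodendrocytes as well. Zfp532 (a zinc finger gene), Gng8 (a G protein subunit), Nr1d2 (a repressor of the circadian clock), Snrpc (a spliceosome subunit) and Oaz1 had log2 changes of -2.07 to -1.69 (edgeR adjusted p = 0.0187 to 0.0398). Among ribosomal protein genes Rpl13 and Rpl18 fell. Rpl13 changed by -1.66 ± 0.32 (log2, edgeR adjusted p = 0.0153). Rpl18 changed by -1.38 ± 0.30 (log2, edgeR adjusted p = 0.0187). Calls lost among Zfp532, Gng8, Nr1d2, Snrpc, Oaz1, Rpl13 and Rpl18 were 1 without rTg4510 replicate 1 (edgeR adjusted p = 0.0536), 4 without rTg4510 replicate 2 (0.058 to 0.127), 5 without rTg4510 replicate 3 (0.0622 to 0.103) and 2 without rTg4510 replicate 4 (0.0555 to 0.0875). Those for P301L were 7 without P301L replicate 1 (edgeR adjusted p = 0.0873 to 0.268), 6 without P301L replicate 2 (0.0501 to 0.208) and 4 without P301L replicate 3 (0.0631 to 0.101).

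Astrocytes had 3 higher and 15 lower genes of 4797 tested, 0.375%. Irgm1, an interferon-inducible GTPase that guards against pathogens, rose most. No gene of the reactive state passed the test with all animals, though 1 animal decided this for Gfap and C4b. Of the called genes, 8 were also called without P301L replicate 3, 17 without the shared barcodes and 6 with only the 7 animals in the fit. Leaving out 1 animal at a time, edgeR called 9, 11, 1 and 17 without rTg4510 replicates 1, 2, 3 and 4. Counts without P301L replicates 1, 2 and 3 were 0 (409 at an unadjusted p under 0.05), 27 and 10. Irgm1 had 94.8, 103, 103 and 94.7 CPM in rTg4510 animals, against 8.15, 19.0 and 33.2 CPM in P301L animals. The rTg4510 values lay close together and above all P301L values and WT values at 0 to 33.2 CPM. Irgm1 changed by 2.43 ± 0.57 (log2, edgeR adjusted p = 0.0407). For Irgm1 the edgeR adjusted p was 0.0539 to 0.364 without rTg4510 replicate 1, 2, 3 or 4 or P301L replicate 1 or 2. Adamts1, a protease of the extracellular matrix, had 94.8, 136, 61.3 and 149 CPM in rTg4510 animals, against 32.6, 25.3 and 16.6 CPM in P301L animals. Adamts1 changed by 2.04 ± 0.46 (log2, edgeR adjusted p = 0.0407). For Adamts1 the edgeR adjusted p was 0.0541 to 0.274 without rTg4510 replicate 2 or 4 or P301L replicate 1, 2 or 3. Ndrg4 rose as well, with 107, 157, 216 and 108 CPM in rTg4510 animals, against 16.3, 44.4 and 66.4 CPM in P301L animals. WT animals, at 125 to 240.3 CPM, covered the rTg4510 range in part. Ndrg4 changed by 1.93 ± 0.42 (log2, edgeR adjusted p = 0.0394). For Ndrg4 the edgeR adjusted p was 0.0524 to 0.364 without rTg4510 replicate 3 or P301L replicate 1 or 2. In the same astrocyte sums the 7 neuron markers, none of them called, had log2 changes of 0.74 to 2.01. The part of neuronal RNA in the Ndrg4 value was not tested.

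A few genes fell in astrocytes. Etv4 (a transcription factor), Zfp219 (a zinc finger gene), 6720401G13Rik and Tsc22d3 (a glucocorticoid-induced regulator) had log2 changes of -2.93 to -1.72 (edgeR adjusted p = 0.0394 to 0.0407). Of the calls of Etv4, Zfp219, 6720401G13Rik and Tsc22d3, those lost were 1 without rTg4510 replicate 1 (edgeR adjusted p = 0.0945), 3 without rTg4510 replicate 2 (0.0787 to 0.0989), 4 without rTg4510 replicate 3 (0.163 to 0.183) and 2 without rTg4510 replicate 4 (0.0541 to 0.0589). Also lost were 4 without P301L replicate 1 (edgeR adjusted p = 0.38 to 0.719), 1 without P301L replicate 2 (0.0822) and 1 without P301L replicate 3 (0.0546).

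Gfap, the filament protein that marks reactive astrocytes, had 3715, 2153, 4576 and 1713 CPM in rTg4510 animals, against 669, 4822 and 697 CPM in P301L animals. P301L replicate 2 lay above every rTg4510 animal while the other 2 P301L animals lay below, beside WT animals at 272 to 822 CPM. Gfap had a log2 change of 0.53 ± 0.60 (edgeR adjusted p = 0.753). Without P301L replicate 2 Gfap was called (edgeR adjusted p = 0.0339), as was C4b, a complement gene of reactive astrocytes (0.0389, against 0.434 with all animals). None of 9 tested genes of the reactive state was called by edgeR with all animals, although all were positive (median log2 change 0.76, against -0.01 over all genes tested). None of 16 cholesterol synthesis genes was called and 15 were negative (median log2 change -0.93, against -0.01 over all genes tested). None of 16 genes of transport and metabolism was called (median log2 change -0.38, against -0.01 over all genes tested); Slc1a2, the main glutamate transporter, had 12129.6 to 17272 CPM in rTg4510 animals, against 13439 to 20678 CPM in P301L animals. Slc1a2 had a log2 change of -0.03 ± 0.23 (edgeR adjusted p = 0.978). H2-D1 just missed the threshold (log2 change 1.48 ± 0.36, edgeR adjusted p = 0.0531) and passed it without rTg4510 replicate 4 (edgeR adjusted p = 0.0246). The microglial markers summed to 512 to 2319 CPM in rTg4510 animals, against 212 to 412 CPM in P301L animals (rTta 218 to 530.1, WT 214 to 525 CPM) in the same cells.

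Few genes were called in vascular and precursor cells. In endothelial cells, the lining of vessels, edgeR called 4 of 3907 genes (0.102%). Rgs5 rose, and Rpl13, Bcam and Serf2 fell. Rgs5 changed by 2.46 ± 0.50 (log2, edgeR adjusted p = 0.0457). Rpl13, Bcam (a laminin receptor) and Serf2 had log2 changes of -1.77 to -1.40 (edgeR adjusted p = 0.0393 to 0.0457). Rgs5 is a marker of mural cells, the contractile cells around vessels, whose markers summed to 1543 to 4438 CPM in rTg4510 animals, against 567 to 2076 CPM in P301L animals (rTta 382 to 1401, WT 1655 to 5804 CPM) in the endothelial class, and their part was not tested. In mural cells the circadian repressor Nr1d1 was the only called gene of 1810 (0.0552%), with 43.8, 154 and 61.5 CPM in rTg4510 animals, against 705, 678 and 766 CPM in P301L animals over the 3 rTg4510 animals with enough cells, replicates 1, 2 and 4. Nr1d1 changed by -2.90 ± 0.61 (log2, edgeR adjusted p = 0.0324). For Nr1d1 the edgeR adjusted p was 0.0661 to 0.196 without rTg4510 replicate 1 or 4 or P301L replicate 1, 2 or 3. Oligodendrocyte precursors, with the same 3 rTg4510 animals, had 0 genes called of 3676 by edgeR (0.0%), 310 at an unadjusted p under 0.05, and 0 by DESeq2. With only the 7 animals in the fit, edgeR called 12 genes in precursors, 8 in endothelial cells and 13 in mural cells. Leaving out 1 animal at a time in endothelial cells, edgeR called 8, 0 (264 at an unadjusted p under 0.05), 2 and 4 without rTg4510 replicates 1, 2, 3 and 4. The counts were 1, 1 and 0 (304 at an unadjusted p under 0.05) without P301L replicates 1, 2 and 3. For mural cells, edgeR called 0 (143 at an unadjusted p under 0.05), 2 and 0 (145 at an unadjusted p under 0.05) without rTg4510 replicates 1, 2 and 4. It called 0 (118 at an unadjusted p under 0.05), 0 (114 at an unadjusted p under 0.05) and 0 (135 at an unadjusted p under 0.05) without P301L replicates 1, 2 and 3. For Rgs5, Rpl13, Bcam and Serf2, calls lost were 2 without rTg4510 replicate 1 (edgeR adjusted p = 0.0551 to 0.0675), 4 without rTg4510 replicate 2 (0.193 to 0.311), 3 without rTg4510 replicate 3 (0.0727 to 0.131) and 2 without rTg4510 replicate 4 (0.0603 to 0.095). On the P301L side they were 3 without P301L replicate 1 (edgeR adjusted p = 0.0766 to 0.153), 3 without P301L replicate 2 (0.0852 to 0.313), 4 without P301L replicate 3 (0.231 to 0.345) and 3 without the shared barcodes (0.053).

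The low-count clusters 2 and 7 held called genes as well. In cluster 2, edgeR called 5 of 4754 genes (0.105%), all higher; with 1 animal left out, edgeR called 0 (387 at an unadjusted p under 0.05), 1, 0 (386 at an unadjusted p under 0.05) and 6 without rTg4510 replicates 1, 2, 3 and 4. Counts without P301L replicates 1, 2 and 3 were 0 (384 at an unadjusted p under 0.05), 0 (352 at an unadjusted p under 0.05) and 8. Apoe had 4059, 3285, 5087 and 1805 CPM in rTg4510 animals, against 643, 699 and 1452 CPM in P301L animals there. Apoe changed by 2.01 ± 0.40 (log2, edgeR adjusted p = 0.0158). For Apoe the edgeR adjusted p was 0.0654 to 0.282 without rTg4510 replicate 1 or 3 or P301L replicate 1 or 2. Mt2, a metallothionein, changed by 2.10 ± 0.46 (log2, edgeR adjusted p = 0.0206). Pla2g7, a lipid-cleaving enzyme, changed by 2.85 ± 0.67 (log2, edgeR adjusted p = 0.0413). Mt2 and Pla2g7 were also among the leading genes of the astrocyte class. The part of astrocyte RNA in the Apoe, Mt2 and Pla2g7 values was not tested. Tsix changed by 2.98 ± 0.66 (log2, edgeR adjusted p = 0.039). Tsix lies antisense to Xist, so that their reads cannot be told apart unless strand was used. Calls lost among Mt2, Pla2g7 and Tsix were 3 without rTg4510 replicate 1 (edgeR adjusted p = 0.106 to 0.153), 3 without rTg4510 replicate 2 (0.0919 to 0.152) and 3 without rTg4510 replicate 3 (0.0895). Those for P301L were 3 without P301L replicate 1 (edgeR adjusted p = 0.282 to 0.547), 3 without P301L replicate 2 (0.203 to 0.253) and 1 without P301L replicate 3 (0.0796).

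In cluster 7, edgeR called 26 of 2396 (1.09%), with 16 higher and 10 lower; with 1 animal left out, edgeR called 7, 26, 9 and 30 without rTg4510 replicates 1, 2, 3 and 4. The counts were 2, 6 and 58 without P301L replicates 1, 2 and 3. Genes besides Mapt and Prnp rose there. Neat1 (a long nuclear RNA), Dner (a Notch ligand), Fxyd1 (an ion-pump regulator) and Rpl38 had log2 changes of 1.95 to 2.83 (edgeR adjusted p = 0.00945 to 0.0482). Others fell there. Atp5g1, Rpl13, Rprml and Ndufb4 (a subunit of respiratory complex I) had log2 changes of -2.04 to -1.57 (edgeR adjusted p = 0.00945 to 0.0482). Of the calls of Neat1, Dner, Fxyd1, Rpl38, Atp5g1, Rpl13, Rprml and Ndufb4, those lost were 7 without rTg4510 replicate 1 (edgeR adjusted p = 0.0512 to 0.274), 1 without rTg4510 replicate 2 (0.0582), 4 without rTg4510 replicate 3 (0.0576 to 0.191) and 1 without rTg4510 replicate 4 (0.0866). Also lost were 7 without P301L replicate 1 (edgeR adjusted p = 0.0523 to 0.204), 7 without P301L replicate 2 (0.0716 to 0.38), 2 without P301L replicate 3 (0.0578 to 0.0763) and 2 without the shared barcodes (0.0606).

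Heat shock genes were lower in rTg4510 where they were called. Of 13 listed genes, 4 of 13 were called lower over all cells, where 1.06% of all genes were. In microglia 4 of 12 were called lower (3.55% of all genes there) and in oligodendrocytes 2 of 12 (0.413% of all genes there). It was 0 of 12 in excitatory neurons, 0 of 9 in astrocytes and 0 of 13 in endothelial cells by edgeR, while 1397, 690 and 336 of all genes had an unadjusted p under 0.05 in those 3 classes. The called genes were the stress-induced chaperones Hspa1a and Hspa1b, their partner Dnajb1, the small chaperone Hspb1 and, in microglia, Hsp90aa1. The median log2 changes of the list were 0.04 over all cells, -0.73 in microglia and -0.09 in oligodendrocytes, against 0.06, 0.04 and 0.00 over all genes tested there. Without P301L replicate 3 the calls were 0 over all cells, 2 in microglia and 2 in oligodendrocytes. In excitatory neurons that fit called 1 gene lower, Hspa1a (edgeR adjusted p = 0.0464).

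The promoter windows of 3 of these genes are printed because these genes fell over all cells. The sequences are from RefSeq (GRCm38.p6), from 250 bases before to 50 bases after the start, and capitals mark matches of GAANNTTC or TTCNNGAA, a pair of facing or opposing GAA repeats, searched on both strands, each of which reads the same on the other strand.
Hspa1a: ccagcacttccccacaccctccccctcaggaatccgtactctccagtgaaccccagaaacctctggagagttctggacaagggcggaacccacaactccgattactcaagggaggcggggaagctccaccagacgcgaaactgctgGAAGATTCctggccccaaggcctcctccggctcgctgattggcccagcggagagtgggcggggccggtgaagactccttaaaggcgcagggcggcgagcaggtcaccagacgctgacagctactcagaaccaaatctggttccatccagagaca
Hspb1: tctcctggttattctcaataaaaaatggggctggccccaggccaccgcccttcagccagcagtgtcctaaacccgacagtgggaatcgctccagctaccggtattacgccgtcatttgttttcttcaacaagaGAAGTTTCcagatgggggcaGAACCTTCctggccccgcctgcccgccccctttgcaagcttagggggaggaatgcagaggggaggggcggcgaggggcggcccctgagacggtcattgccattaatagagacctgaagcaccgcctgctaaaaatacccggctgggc
Dnajb1: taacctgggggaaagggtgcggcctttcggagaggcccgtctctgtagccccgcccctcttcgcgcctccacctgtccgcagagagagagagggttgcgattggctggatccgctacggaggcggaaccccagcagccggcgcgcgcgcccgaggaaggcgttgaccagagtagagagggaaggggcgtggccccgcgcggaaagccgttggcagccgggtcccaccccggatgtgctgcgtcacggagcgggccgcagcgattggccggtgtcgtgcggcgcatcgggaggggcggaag
Hspa1a is at chr17:34972107-34972406 on the minus strand, Hspb1 at chr5:135887669-135887968 on the plus strand and Dnajb1 at chr8:83607925-83608224 on the plus strand. The window of Hspa1a held 1 match of GAANNTTC, that of Hspb1 2 and that of Dnajb1 0. Hspa1b, at chr17:34959189-34959488 on the minus strand, equals Hspa1a at 296 of 300 positions, and the transcripts of the pair may share reads. Either motif was in the first window of 6 of the 10 listed heat shock genes with a window, and of 15.1% of 27025 genes.

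Hspa1a had 107, 53.0, 92.9 and 44.7 CPM in rTg4510 animals, against 715, 449.7 and 665 CPM in P301L animals over all cells. All rTg4510 animals lay well below all P301L animals, while WT animals, at 98.2 to 539 CPM, reached into both ranges and rTta animals, at 91.6 to 223 CPM, into that of rTg4510. Hspa1a changed by -3.03 ± 0.49 (log2, edgeR adjusted p = 0.0156). For Hspa1a the edgeR adjusted p was 0.0524 without P301L replicate 3. Hspb1, which holds unfolding proteins, had 67.7, 53.2, 60.6 and 24.9 CPM in rTg4510 animals, against 174, 143 and 252 CPM in P301L animals. The groups were apart and rTta animals, at 39.8 to 57.1 CPM, lay with rTg4510. Hspb1 changed by -1.87 ± 0.33 (log2, edgeR adjusted p = 0.0156). For Hspb1 the edgeR adjusted p was 0.0741 without P301L replicate 3. Hspa1b and Dnajb1 fell as well. Hspa1b changed by -3.30 ± 0.63 (log2, edgeR adjusted p = 0.0199). For Hspa1b the edgeR adjusted p was 0.0586 to 0.0719 without rTg4510 replicate 3 or 4 or P301L replicate 1 or 3. Dnajb1 changed by -1.54 ± 0.34 (log2, edgeR adjusted p = 0.0275). For Dnajb1 the edgeR adjusted p was 0.0603 to 0.108 without rTg4510 replicate 2 or 4 or P301L replicate 1, 2 or 3.

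In microglia Hspa1a had 249, 74.5, 248 and 188 CPM in rTg4510 animals, against 2556, 607 and 819 CPM in P301L animals, with P301L replicate 1 highest and no overlap. Hspa1a changed by -2.84 ± 0.66 (log2, edgeR adjusted p = 0.0167). For Hspa1a the edgeR adjusted p was 0.17 without P301L replicate 1. Dnajb1 and Hspa1b fell there too. Dnajb1 changed by -1.73 ± 0.37 (log2, edgeR adjusted p = 0.00455). For Dnajb1 the edgeR adjusted p was 0.0648 without P301L replicate 3. Hspa1b changed by -3.30 ± 0.93 (log2, edgeR adjusted p = 0.0434). For Hspa1b the edgeR adjusted p was 0.079 to 0.258 without rTg4510 replicate 2, 3 or 4 or P301L replicate 1, 2 or 3. Hsp90aa1, the inducible form of a general chaperone, had 487, 438, 393 and 402 CPM in rTg4510 animals, against 2117, 520.3 and 509 CPM in P301L animals, with P301L replicate 1 far above the rest. Hsp90aa1 changed by -1.27 ± 0.38 (log2, edgeR adjusted p = 0.0354). For Hsp90aa1 the edgeR adjusted p was 0.0557 to 0.825 without rTg4510 replicate 1, 2, 3 or 4 or P301L replicate 1.

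In oligodendrocytes Hspa1b had 27.6, 15.9, 22.4 and 0 CPM in rTg4510 animals, against 543, 187 and 126 CPM in P301L animals. Hspa1b changed by -4.07 ± 0.70 (log2, edgeR adjusted p = 0.0153). For Hspa1b the edgeR adjusted p was 0.0828 without P301L replicate 1. Dnajb1 had 78.1, 49.8, 67.1 and 34.2 CPM in rTg4510 animals, against 377, 385 and 247 CPM in P301L animals. Neither gene overlapped between the groups. Dnajb1 changed by -2.57 ± 0.51 (log2, edgeR adjusted p = 0.0217). For Dnajb1 the edgeR adjusted p was 0.0622 to 0.118 without rTg4510 replicate 3 or P301L replicate 1 or 2. In endothelial cells Hspa1a had 803, 516, 1935 and 268 CPM in rTg4510 animals, against 5381, 1922 and 3319 CPM in P301L animals, with rTg4510 replicate 3 just above P301L replicate 2. Hspa1a had a log2 change of -1.98 ± 0.75 (edgeR adjusted p = 0.451). In excitatory neurons it differed by -1.32 ± 0.38 (edgeR adjusted p = 0.0834); differences between classes were not tested. Hspa8, the constitutive form, had 11.2, 4.68, 211 and 12.9 CPM in rTg4510 animals, against 9.62, 5.12 and 271 CPM in P301L animals over all cells, with replicate 3 of each group far above the rest. Hspa8 had a log2 change of -0.56 ± 1.63 (edgeR adjusted p = 0.875).

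**Figure D3:**
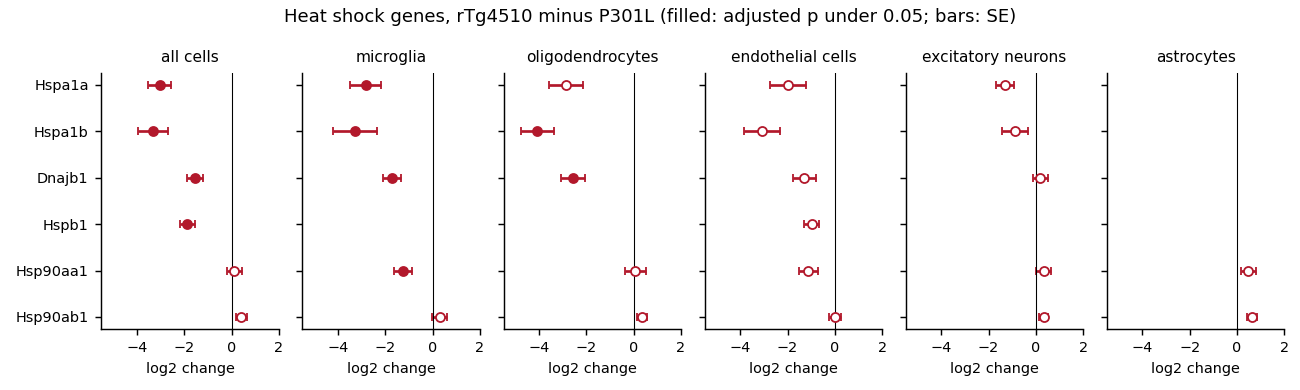
Log2 change of 6 heat shock genes, rTg4510 minus P301L, in all cells and 5 classes, with standard errors as bars; filled points passed the test (edgeR adjusted p under 0.05), open points did not, and a missing point was not tested. Hspa1a lies at -3.03 over all cells and -2.84 in microglia, while Hsp90ab1 lies at 0.42 and 0.29.

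Summed over all cells, 37 genes were higher and 131 lower of 12414 tested, 0.298% and 1.06% (1.35% in all). Cntnap2, Atp1b1, Cck and Camk4, genes that neurons express, were among those that rose, and the vessel genes Ecscr, Eng and Eltd1 and the chaperones given above were among those that fell. No gene was called by edgeR with only the 7 animals in the fit (1992 at an unadjusted p under 0.05), and DESeq2 called 420 with all animals. Leaving out 1 animal at a time, edgeR called 205, 66, 20 and 19 without rTg4510 replicates 1, 2, 3 and 4. It called 47, 12 and 0 (1986 at an unadjusted p under 0.05) without P301L replicates 1, 2 and 3. Without the shared barcodes 216 were called, and without cluster 20 371.

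Cntnap2 had 34.6, 39.0, 102 and 77.0 CPM in rTg4510 animals, against 14.1, 14.1 and 23.5 CPM in P301L animals, with rTg4510 replicates 3 and 4 highest and WT animals at 34.8 to 56.6 CPM. Cntnap2 changed by 1.93 ± 0.35 (log2, edgeR adjusted p = 0.0156). For Cntnap2 the edgeR adjusted p was 0.0524 to 0.0806 without P301L replicate 1, 2 or 3. Other genes that rose included several of neurons. Atp1b1 (a subunit of the sodium pump), Cck, Camk4 (a calcium-dependent kinase of neurons), Hook1 (which links endosomes to motors), Tenm4 (a teneurin of synapses), Fam115a and Fam73a had log2 changes of 1.28 to 1.65 (edgeR adjusted p = 0.0175 to 0.0499). Neuron markers summed to 6769 to 15551 CPM in rTg4510 animals, against 5218 to 13784 CPM in P301L animals (rTta 7831 to 16218, WT 8610.0 to 15798 CPM). For Fam73a, rTg4510 replicate 3 stood at 385 CPM, far above the other animals of its group. For Atp1b1, Cck, Camk4, Hook1, Tenm4, Fam115a and Fam73a, calls lost were 4 without rTg4510 replicate 2 (edgeR adjusted p = 0.0716 to 0.0934), 6 without rTg4510 replicate 3 (0.0553 to 0.112) and 7 without rTg4510 replicate 4 (0.059 to 0.128). On the P301L side they were 7 without P301L replicate 1 (edgeR adjusted p = 0.0623 to 0.148), 7 without P301L replicate 2 (0.0806 to 0.228) and 7 without P301L replicate 3 (0.0719 to 0.19).

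Eng, a co-receptor of endothelial cells, had 28.8, 25.5, 9.61 and 17.99 CPM in rTg4510 animals, against 68.0, 90.3 and 71.9 CPM in P301L animals, without overlap. Eng changed by -1.93 ± 0.41 (log2, edgeR adjusted p = 0.0269). For Eng the edgeR adjusted p was 0.055 to 0.104 without rTg4510 replicate 3 or 4 or P301L replicate 1, 2 or 3. Ecscr and Eltd1, receptors of vessel cells, and Fn1, fibronectin, fell too. Ecscr changed by -2.02 ± 0.38 (log2, edgeR adjusted p = 0.0194). Eltd1 changed by -1.88 ± 0.36 (log2, edgeR adjusted p = 0.0199). Fn1 changed by -1.91 ± 0.47 (log2, edgeR adjusted p = 0.0468). Of 8 endothelial markers 3 were called lower (Pecam1, Ptprb and Cdh5), where 1.06% of all genes were. Summed, the markers were at 677 to 1244 CPM in rTg4510 animals, against 1464 to 2862 CPM in P301L animals (rTta 1233 to 1874, WT 704 to 1696 CPM). Endothelial cells made up 5.56% of rTg4510 and 13.2% of P301L cells, and the part of that in these values was not tested.

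Tubb4a, a tubulin abundant in oligodendrocytes, fell over all cells, beside oligodendrocyte markers at 5938 to 14623 CPM in rTg4510 animals, against 18687 to 27837 CPM in P301L animals (rTta 10861 to 16978, WT 11405 to 28155 CPM). Tubb4a changed by -1.84 ± 0.36 (log2, edgeR adjusted p = 0.0199). Of 19 immediate early genes 3 fell, beside 1.06% of all genes called lower. Arc, which remodels active synapses, changed by -2.06 ± 0.41 (log2, edgeR adjusted p = 0.0199). Klf4 changed by -1.33 ± 0.29 (log2, edgeR adjusted p = 0.029). Jund changed by -1.15 ± 0.24 (log2, edgeR adjusted p = 0.0269). Rpl13 and Rps18 were the called ribosomal protein genes. Rpl13 changed by -1.66 ± 0.41 (log2, edgeR adjusted p = 0.0466). Rps18 changed by -3.16 ± 0.75 (log2, edgeR adjusted p = 0.0433). P301L replicate 3 had Rps18 at 104 CPM, against 11.1 and 7.05 CPM in P301L replicates 1 and 2. Calls lost among Ecscr, Eltd1, Fn1, Tubb4a, Arc, Klf4, Jund, Rpl13 and Rps18 were 1 without rTg4510 replicate 1 (edgeR adjusted p = 0.0515), 5 without rTg4510 replicate 2 (0.0641 to 0.104), 9 without rTg4510 replicate 3 (0.0539 to 0.116) and 8 without rTg4510 replicate 4 (0.059 to 0.118). Those for P301L were 3 without P301L replicate 1 (edgeR adjusted p = 0.0644 to 0.0912), 7 without P301L replicate 2 (0.0686 to 0.228), 9 without P301L replicate 3 (0.0802 to 0.383) and 1 without the shared barcodes (0.102).

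**Figure D4:**
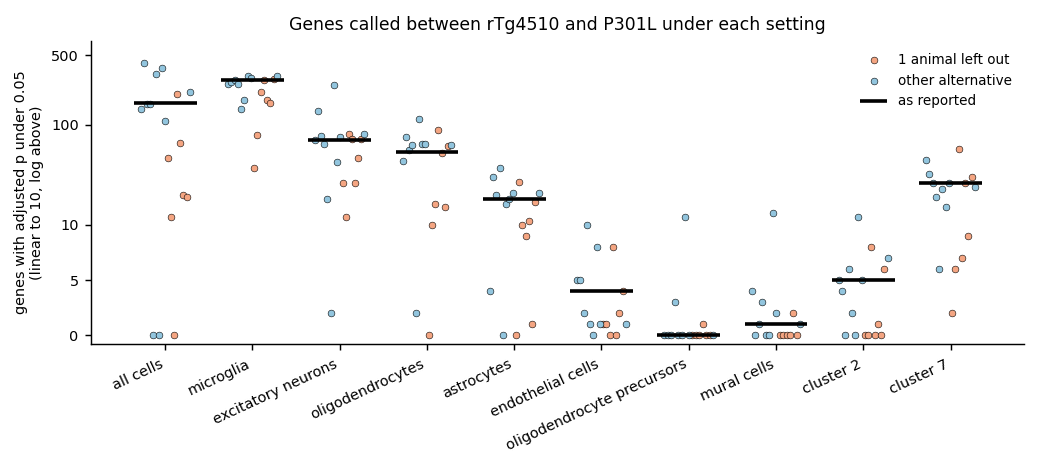
Number of genes called between rTg4510 and P301L in each class, on an axis that is linear to 10 and logarithmic above; bars give the count as reported and points the count with 1 animal left out or under another alternative. Microglia have 282 called genes as reported and between 37 and 290 with 1 animal left out, while the all-cell count of 168 reaches 0.

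The makeup of the samples was compared over animals for 17 classes and clusters, with an exact two-sided permutation test over the 35 splits of 4 against 3 animals, which cannot give a p below 0.0286. Endothelial cells were 6.56, 6.64, 2.94 and 6.11% of the kept cells of the rTg4510 animals, against 10.7, 14.6 and 14.2% in the P301L animals, all rTg4510 values below all P301L values, with means of 5.56 ± 1.76% against 13.2 ± 2.13% (SD, exact p = 0.0286, adjusted p = 0.162). Mural cells were 1.77 ± 1.18% against 5.00 ± 1.24% and cluster 18, led by the haemoglobin gene Beta-s, 0.337 ± 0.343% against 2.08 ± 0.97%, likewise without overlap and with the same exact p, rTg4510 against P301L. Excitatory neurons were 9.34, 20.4, 23.8 and 23.3% of the kept cells of the rTg4510 animals, against 11.3, 8.34 and 5.17% in the P301L animals, where rTg4510 replicate 1 fell inside the P301L range (exact p = 0.0857, adjusted p = 0.243). Interneurons were 3.89 ± 1.38% against 1.09 ± 0.662% (exact p = 0.0571) and oligodendrocytes 11.8 ± 2.69% against 16.5 ± 1.02% (exact p = 0.0857), rTg4510 against P301L. Microglia were 19.9, 23.2, 5.88 and 15.4% of the kept cells of the rTg4510 animals, against 13.0, 19.0 and 16.3% in the P301L animals, with rTg4510 replicate 3 lowest (exact p = 1.00). None of the 17 passed the adjustment. With the smallest exact p at 0.0286, a share could pass only if many of the 17 reached that value. Not passing therefore decides nothing about the shares without overlap. A share of barcodes is also not a count of cells in the hippocampus.

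**Figure D5:**
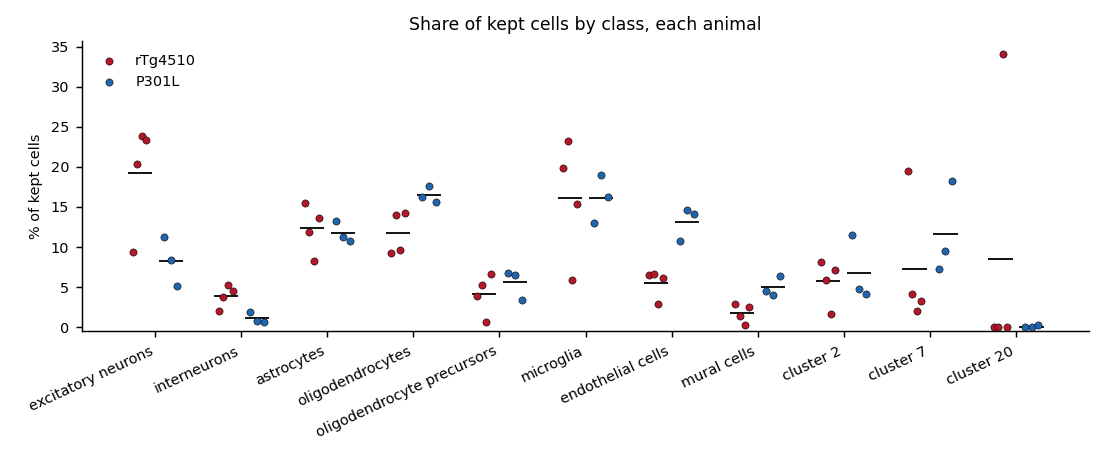
Share of kept cells in each class, percent, 1 point per animal with a bar at the group mean, rTg4510 left of P301L. Endothelial cells are 2.94 to 6.64% in rTg4510 animals and 10.7 to 14.6% in P301L animals.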

How the data were processed

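Drop-seq counts of hippocampal cells were read from the authors' deposited table, which holds whole-number transcript counts per gene and barcode (12-base cell barcode, 8-base molecule tag, per the labels). The submitters' processing notes name bcl2fastq 2.18.0.12, STAR 2.2 and the build mm10; the counting tool and annotation are not given in the sources used here. The labels give each animal by number only, so p-values measure the spread between these animals. The members and the gene lists were chosen with earlier results of these data known.

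Barcodes with at least 300 counts were kept and clustered with scanpy 1.11.5 (scaled to 10000 counts, 2000 variable genes, 40 components, 15 neighbours, Leiden resolution 1). Of 21 clusters, one was named where at least 5 listed markers of a type were 2-fold over the other clusters, with 20 CPM added. The type with most such markers was taken, and neuron subtypes went before the general neuron list. A tie, or leading genes with more markers of another type, left a cluster unnamed, as for clusters 10 and 13. No doublet caller was run; 2272 of 20478 named cells with markers of another class were left out in an alternative. Counts were summed per animal and class, with at least 20 cells. One edgeR 4.0.16 quasi-likelihood fit per class over the animals of all 6 groups (TMM, filterByExpr, robust) gave the contrast. Benjamini-Hochberg adjustment was made within a class. The procedure was tested on simulated data. At a simulated log2 difference of 1, detection was 18% over all cells, 23% in microglia and 30% in excitatory neurons. It was 42% in oligodendrocytes, 25% in astrocytes, 16% in endothelial cells, 13% in precursors and 7% in mural cells. Cluster 2 had 8% and cluster 7 31%. Lists with no called gene may therefore hold differences of that size. At a difference of 2, detection ran from 47% (cluster 2) to 88% (all cells, excitatory neurons). CPM are normalised for TMM factors. DESeq2 1.42.0 was an alternative, as were other filters, scalings and animals left out. Shares were compared with exact permutation tests.

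The named genes are the transgene and insertion-site list; the called genes of at least 50 mean CPM with the 8 largest changes each way in microglia, excitatory neurons, oligodendrocytes and all cells, and the 4 largest elsewhere; and of each list up to 4 called genes, or the 2 most abundant where none was called. Other list members given with values were picked after their values were seen.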

Additional observations from a re-analysis of the deposited data

Results flagged for a closer look

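Within the 4 rTg4510 animals, 1 animal stood apart from the other 3 by Dixon's criterion in 32 of 236 sets of values, 13.6%, where chance alone gives about 1 in 20. No cause was tested.

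Over all cells, single animals stood apart for Fam73a at 385 CPM in replicate 3, above the others (76.2 to 99.6 CPM), Dnajb1 at 78.6 CPM in replicate 3, above the others (46.4 to 50.7 CPM), Rps18 at 10.7 CPM in replicate 1, above the others (1.84 to 2.86 CPM), Rpl13 at 332 CPM in replicate 1, above the others (111 to 139 CPM), Cox4i1 at 4166 CPM in replicate 3, above the others (1298 to 1417 CPM), Cox6c at 2064 CPM in replicate 3, above the others (959 to 1018 CPM) and Hspa8 at 211 CPM in replicate 3, above the others (4.68 to 12.9 CPM). Among microglia, these were Wdr60 at 30.2 CPM in replicate 1, below the others (46.9 to 48.5 CPM), Gad2 at 199.8 CPM in replicate 3, above the others (60.3 to 72.7 CPM), P2ry12 at 524 CPM in replicate 3, below the others (1605 to 1782 CPM), Cd74 at 1441 CPM in replicate 2, above the others (301.4 to 476 CPM) and Cox4i1 at 1647 CPM in replicate 3, above the others (1433 to 1469 CPM). Excitatory neurons gave Esyt2 at 8.58 CPM in replicate 1, below the others (30.6 to 31.8 CPM), Dtnbp1 at 77.2 CPM in replicate 1, below the others (99.8 to 103 CPM), Ppp3ca at 3240.1 CPM in replicate 4, above the others (1574 to 1724 CPM), Atf4 at 109 CPM in replicate 3, below the others (129 to 132 CPM) and Atp5g1 at 134 CPM in replicate 4, above the others (65.7 to 72.9 CPM). Oligodendrocytes gave Ntsr2 at 429 CPM in replicate 3, above the others (104 to 127 CPM) and Chchd10 at 466 CPM in replicate 3, above the others (142 to 175 CPM). Astrocytes gave Mapt at 291 CPM in replicate 2, below the others (425 to 437 CPM), H2-D1 at 266 CPM in replicate 4, below the others (555 to 613 CPM), C4b at 796 CPM in replicate 1, above the others (331 to 390.2 CPM), Jun at 203 CPM in replicate 4, below the others (324 to 342 CPM) and Fos at 326 CPM in replicate 3, above the others (113 to 140.2 CPM). Endothelial cells gave Prnp at 1165 CPM in replicate 4, above the others (814 to 848 CPM) and Serf2 at 212 CPM in replicate 1, above the others (137 to 142 CPM). Cluster 2 gave Wdr60 at 34.8 CPM in replicate 3, below the others (381 to 444 CPM).

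Among shares of cells, rTg4510 replicate 3 stood apart for endothelial cells (2.94%), fibroblasts (1.56%), cluster 6 (2.13%) and cluster 20 (34.0%), and replicate 1 for cluster 7 (19.5%).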

How the results depend on the processing

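Counts of called genes depended on which animals entered the fit. With 1 animal left out they were 0 to 205 over all cells, 37 to 290 in microglia, 12 to 81 in excitatory neurons, 0 to 90 in oligodendrocytes, 0 to 27 in astrocytes, 0 to 1 in precursors, 0 to 8 in endothelial cells, 0 to 2 in mural cells, 0 to 8 in cluster 2 and 2 to 58 in cluster 7. With rTg4510 replicates 1 and 2 only, edgeR called 0 over all cells, 143 in microglia, 18 in excitatory neurons, 2 in oligodendrocytes, 0 in astrocytes, 1 in endothelial cells, 0 in mural cells, 2 in cluster 2 and 6 in cluster 7. With replicates 3 and 4 only it called 324 over all cells, 178 in microglia, 2 in excitatory neurons, 114 in oligodendrocytes and 0 in endothelial cells, mural cells and cluster 2. With only the 7 animals it called 0 over all cells, 250 in excitatory neurons, 12 in precursors and in cluster 2, 8 in endothelial cells, 13 in mural cells and 15 in cluster 7. DESeq2 called 420 over all cells, 139 in excitatory neurons, 30 in astrocytes and 0 in mural cells, and its size factors in edgeR gave 2 in endothelial cells and 0 in cluster 2. Without the low-count filter there were 37 in astrocytes, 3 in precursors, 10 in endothelial cells and 3 in mural cells. At 500 counts per barcode there were 4 in astrocytes and in mural cells and 45 in cluster 7. Without mixed droplets there were 109 over all cells, 1 in endothelial cells and 2 in mural cells. Chosen after seeing the data, leaving out the shared barcodes gave 1 in endothelial cells, adding clusters 2 and 7 to excitatory neurons gave 43, and cluster 15 alone gave 93 in microglia; without cluster 20 there were 371 over all cells. The causes were not tested.

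Of the shares, differences in percentage points of rTg4510 minus P301L changed sign at 500 counts per barcode for microglia (1.24), cluster 2 (0.581), cluster 10 (-0.0102) and cluster 13 (-0.00502), outside cluster 20 for microglia (0.744) and without the shared barcodes for cluster 10 (-0.0226). With 1 animal left out they ran from -2.38 to 3.41 for microglia, -0.493 to 1.90 for astrocytes, -2.36 to 1.28 for cluster 2, -0.151 to 0.263 for cluster 10 and -0.0821 to 11.3 for cluster 20. No named gene changed direction past the threshold under any alternative run. No paired analysis was possible because the labels give animal numbers and no number shared between the groups. Depth limits the rarer classes: mural cells and precursors had too few cells in rTg4510 replicate 3 to enter the fit.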
